A study of Mus musculus with 15 samples.

Results

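The extracellular matrix of the liver and the cells that make it were followed through 39 genes, selected by symbol from the 45861 genes of the deposited table. They comprise 13 collagen chains, proteoglycans and glycoproteins, enzymes that cross-link or cut the matrix with their inhibitors, and the receptors, ligand and contractile genes by which hepatic stellate cells are recognised. Each of the 39 symbols matched 1 entry. The data are RNA sequencing of snap-frozen liver from C57BL/6 mice, 15 libraries in all, given as FPKM (fragments divided by transcript length and library size), with no counts. Wild-type (WT) and Fkbp5-/- (KO) mice, which lack a glucocorticoid receptor co-chaperone, were compared on a control and on an ethanol diet. Both WT groups and the ethanol-fed KO group hold 4 libraries each, and the KO group on the control diet holds 3.

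All mice followed the NIAAA chronic-plus-binge schedule. The ethanol groups reached 5% ethanol in a liquid diet, stayed on it for 10 days and then received 5 g/kg ethanol by gavage. Control groups had the control liquid diet and a gavage of maltose, and every liver was taken 9 hours after the gavage. Age and sex are not in the labels. Xist lay above 10 FPKM in 2 livers of either WT group, in 2 of the 3 KO livers on control diet and in 1 of the 4 on ethanol. WT ethanol replicate 4 is titled WT although its genotype field reads KO. Its Fkbp5 level was 45.2 FPKM, beside 23.9 to 54.5 FPKM over the WT ethanol group and 2.45 to 5.41 FPKM in the KO ethanol group, and it was kept with WT. KO control livers had 0.351 to 1.56 FPKM and WT control livers 3.27 to 15.2 FPKM of Fkbp5. KO control replicate 1 stands apart: its 10 highest genes took 59.3% of its FPKM, against 19.7% to 28.5% in the other libraries, with Rn7s1 at 183764 FPKM. Depth estimated from the steps of low values was 22300000 to 28800000 fragments per library. The hepatocyte gene Alb was listed at 0 in 1 KO ethanol library and at high levels elsewhere, so that a listed 0 is not read as absence.

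As background, hepatic stellate cells lie between hepatocytes and sinusoidal endothelium, store vitamin A when quiescent, and become contractile, collagen-secreting myofibroblasts after injury under the influence of TGF-beta and PDGF. Fibrillar collagens (types I, III and V) give scar tissue its tensile strength, type IV collagen forms basement membranes, and type VI collagen forms beaded microfilaments around cells. Turnover is set by matrix metalloproteinases, by the tissue inhibitors that block them (the TIMPs) and by lysyl oxidases, which cross-link collagen. Hepatocytes contribute some matrix proteins themselves, chiefly plasma fibronectin.

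Of the 33 genes high enough to test, 4 passed an adjusted p of 0.05 by limma on ethanol in WT, in both directions, and 1 in KO. The shares of all tested genes were 7.7% and 4.13%. Changes lay above 0 in 9 of the 33 in WT and 6 in KO, beside 45.2% and 36.8% of all genes. Col3a1, the chain of type III collagen, fell in both genotypes, and Timp3, which encodes a matrix-bound metalloproteinase inhibitor, rose in WT livers. To show where transcription of each begins, the reference sequence upstream of their RefSeq starts (GRCm38.p6, plus strand) is given 5′ to 3′. It ends at the base before the start for Col3a1, at chr1:45311288-45311537, and covers chr10:86300162-86300371 for Timp3, whose last 40 upstream bases overlap an annotated exon and are left out. Capitals mark the motif TATAAA.
Col3a1: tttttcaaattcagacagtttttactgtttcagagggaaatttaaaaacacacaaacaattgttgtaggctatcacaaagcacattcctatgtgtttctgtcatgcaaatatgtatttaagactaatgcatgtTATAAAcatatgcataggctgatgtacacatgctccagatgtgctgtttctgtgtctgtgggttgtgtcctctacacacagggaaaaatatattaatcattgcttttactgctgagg
Timp3: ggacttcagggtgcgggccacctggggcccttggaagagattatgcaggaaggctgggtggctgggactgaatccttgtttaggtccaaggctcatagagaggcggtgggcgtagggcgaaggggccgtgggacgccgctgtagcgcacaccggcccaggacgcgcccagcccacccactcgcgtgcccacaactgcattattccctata
The Col3a1 stretch is 35.2% G and C, and the Timp3 stretch 63.8%. Both strands were searched for 4 motifs, which were the TATA box as TATAAA, the element of nuclear factor Y as CCAAT, the element of Sp1 as GGGCGG and the half-site of the glucocorticoid receptor as TGTTCT. The first occurred once upstream of Col3a1, 117 bases before its start, and the other 3 motifs did not occur there. None of the 4 occurred in the printed Timp3 stretch, and 1 GGGCGG lies in the bases left out. RefSeq entries with 250 upstream bases were at hand for 27 of the 39 genes (32 entries). Of these entries, 56.3% hold GGGCGG, 28.1% CCAAT, 9.38% TATAAA and 12.5% TGTTCT, beside 32.7%, 33.8%, 12.4% and 16.1% of the 32851 entries of the whole table.

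Levels differed widely between the genes. Fn1 (fibronectin), with a median over the libraries of 301.7 FPKM, and Col18a1, the chain whose C-terminal fragment is endostatin, with 148 FPKM, stood above all others. Medians between 10 and 100 FPKM were found for 4 genes: the proteoglycans Dcn (37.3 FPKM) and Bgn (24.5 FPKM), the TGF-beta-induced adhesion protein Tgfbi (11.1 FPKM) and the collagen-binding glycoprotein Sparc (10.3 FPKM). A further 23 genes had medians between 1 and 10 FPKM, and 10 lay under 1 FPKM. Both chains of type I collagen were low, with medians of 1.64 FPKM for Col1a2 and 0.918 FPKM for Col1a1. Testing was limited to genes that reached 1 FPKM in 3 or more libraries, which left 33 of the 39. Of these, Col6a2 and Col6a3 reached 1 FPKM in control livers only. The genes below this limit were Fbln1, Fbn1, Timp1, Mmp2, Lox and Loxl1.

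**Figure D1:**
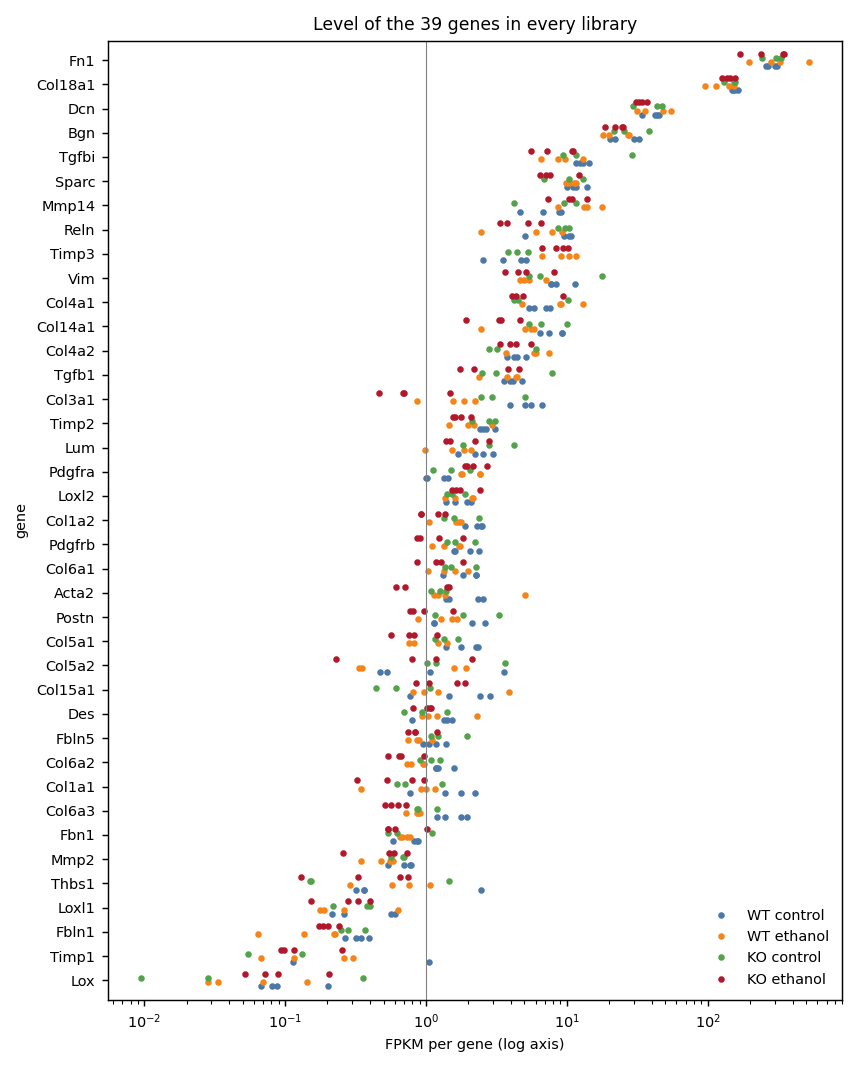
FPKM of each of the 39 genes in each library on a log axis, ordered by median and coloured by group; the grey line marks 1 FPKM, and the 3 Timp1 values listed at 0 are not drawn. Fn1 and Col18a1 lie above the rest, and the 10 lowest genes have medians under 1 FPKM.

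A limma model across 13840 genes was used for each comparison, on log2(FPKM + 1), and a gene was called where its p, adjusted over all of them by Benjamini-Hochberg, was under 0.05. Adding 1 understates the change of low genes. In WT livers ethanol raised 2 and lowered 2 of the 33 tested genes, where 7.7% of all tested genes were called (3.09% higher and 4.62% lower). The called genes were Timp3 and Pdgfra, higher, and Col3a1 and Col6a3, lower. In KO livers Col3a1 was called lower and the other 32 genes were not called, where 4.13% of all genes were called (1.4% higher and 2.72% lower). Every WT ethanol liver lay above every WT control liver for 2 of the 33 genes (6.4% of all genes) and below for 6 (9.28%: Col1a2, Col3a1, Col6a2, Col6a3, Col14a1 and Vim). In KO this held for 1 gene upward (5.72%) and for 5 downward, Col3a1, Col6a3, Col14a1, Timp2 and Reln, close to the 15.2% of all genes. The median log2 change of the tested genes was -0.17 in WT, beside -0.04 over all genes, and -0.29 in KO, beside -0.10. Changes lay above 0 in 9 of 33 genes in WT and 6 of 33 in KO, beside 45.2% and 36.8% of all genes. An unadjusted p under 0.05 was found for 10 of the 33 in WT and 13 in KO, beside 25.8% and 21.7% of all genes. Scaling every library to a common FPKM sum moved the median of all genes by 0.26 in KO, and that of the tested genes there to -0.02. The largest divisor in this scaling falls on KO control replicate 1, whose FPKM summed to 790741, beside 416837 to 525108 in the other libraries. In bulk tissue, fewer cells of a type and less RNA per cell cannot be told apart. The p-values measure the spread between single livers.

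**Figure D2:**
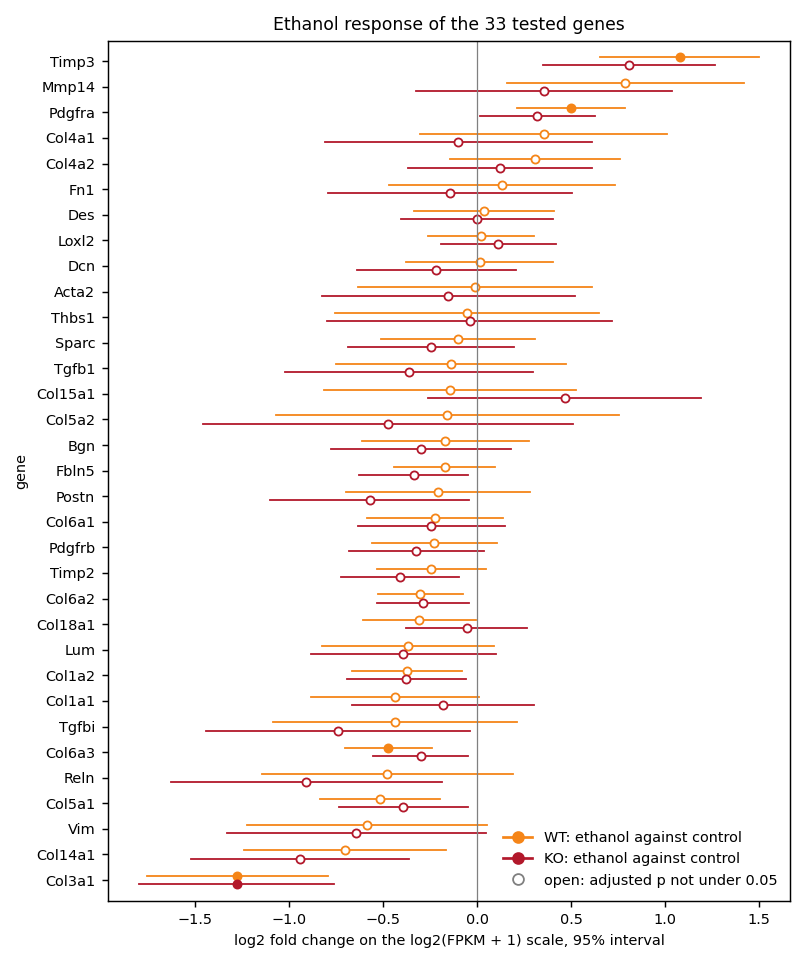
Log2 change of ethanol against control on the log2(FPKM + 1) scale for the 33 tested genes, with 95% intervals from the limma model, in WT and in KO; filled points passed an adjusted p of 0.05. Timp3 and Pdgfra in WT, above 0, and Col3a1 in both genotypes and Col6a3 in WT, below 0, are the filled points.

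Of the 5 fibrillar collagen chains, 1 was called on ethanol, Col3a1, which fell in both genotypes. Col3a1 (chr1:45311538-45349706, GRCm38) read 5.61, 5.07, 6.66 and 3.95 FPKM in the WT control livers and 1.56, 2.24, 1.86 and 0.858 FPKM in the WT ethanol livers. Among KO livers it read 5.07, 2.45 and 2.94 FPKM on the control diet and 0.697, 0.462, 0.684 and 1.47 FPKM on ethanol. Every ethanol liver was below every control liver of its genotype. The log2 change by limma was -1.28 ± 0.22 (SE) in WT (adjusted p = 0.00752) and -1.28 ± 0.24 in KO (adjusted p = 0.0146). It was called in both genotypes whichever single library was left out, but with a term for pancreatic acinar markers the WT change was -0.91 (adjusted p = 0.135), and with a term for Kupffer cell and macrophage markers the KO change was -1.05 (adjusted p = 0.065). A KO call was also lost when only the KO libraries were fitted, at the same change. The 4 other fibrillar chains had log2 changes of -0.52 to -0.16 in WT and -0.47 to -0.18 in KO, and none was called. All 5 fibrillar changes were below 0 in both genotypes under each of the 3 other scalings as well.

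Col1a2, which pairs with Col1a1 in type I collagen, read 2.50, 2.31, 2.46 and 1.89 FPKM in WT control and 1.64, 1.78, 1.71 and 1.05 FPKM in WT ethanol livers. On the KO background it read 2.37, 1.57 and 1.34 FPKM on the control diet and 1.23, 0.926, 0.915 and 1.36 FPKM on ethanol. The WT groups did not overlap and the KO groups did, and neither change was called (WT -0.38, limma adjusted p = 0.105; KO -0.38, adjusted p = 0.157). Col1a1 (chr11:94936224-94953042) read 1.78, 1.37, 2.21 and 0.764 FPKM in WT control, 0.995, 0.918, 1.15 and 0.346 FPKM in WT ethanol, 1.30, 0.62 and 0.712 FPKM in KO control and 0.791, 0.533, 0.323 and 0.976 FPKM in KO ethanol livers. Its groups overlapped in both genotypes. Col5a1, a chain of the type V collagen that nucleates fibrils, had a log2 change of -0.52 in WT, narrowly outside the threshold (limma adjusted p = 0.05). Col5a2 ranged from 0.229 to 3.66 FPKM with overlapping groups. The summed fibrillar chains had medians of 12.1 FPKM in WT control, 6.23 FPKM in WT ethanol, 7.37 FPKM in KO control and 4.76 FPKM in KO ethanol livers.

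The level of Col3a1 relative to Col1a2 also separated the diets. This ratio was chosen after the values were seen. Per kilobase, the ratio of Col3a1 to Col1a2 was 2.10 to 2.71 in WT control and 0.817 to 1.26 in WT ethanol livers, and 1.56 to 2.19 in KO control and 0.499 to 1.08 in KO ethanol livers. Groups did not overlap in either genotype. Two-sided exact permutation tests of the log2 ratio gave a difference of -1.18 in WT (p = 0.0286, the smallest that 4 against 4 allows) and -1.49 in KO (p = 0.0571, the smallest that 4 against 3 allows). Adjusted over the 12 tests on 5 such ratios and the Fn1 share below, these were 0.0857 and 0.098, so neither passed. By contrast, the ratio of Col1a1 to Col1a2 overlapped between diets in both genotypes (exact permutation p = 0.4 and 0.514).

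Of 3 chains of the filament-forming type VI collagen, Col6a3 fell in WT and 0 were called by limma in KO, where Col6a2 and Col6a3 had an unadjusted p under 0.05. Both Col6a2 and Col6a3 reached 1 FPKM in control livers only, so they entered the test through the diet on which they were higher. With no filter on low values, Col6a3 was also called lower in WT. Col6a3 (chr1:90766860-90843971) read 1.96, 1.77, 1.37 and 1.20 FPKM in WT control and 0.882, 0.904, 0.866 and 0.724 FPKM in WT ethanol livers. Without Fkbp5 it read 1.21, 0.866 and 0.88 FPKM on the control diet and 0.717, 0.567, 0.51 and 0.631 FPKM on ethanol. Neither genotype's groups overlapped. The limma change was -0.47 ± 0.11 (SE) in WT (adjusted p = 0.0219) and -0.30 ± 0.12 in KO (adjusted p = 0.156). The WT call was lost without WT control replicate 1, WT control replicate 2 or WT ethanol replicate 1, and also with the acinar term, under quantile normalization and when only the WT libraries were fitted. Col6a1 and Col6a2 had log2 changes of -0.22 and -0.30 in WT and of -0.24 and -0.29 in KO without a call, and the 3 chains were below 0 in both genotypes under every scaling tried.

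The type IV chains of basement membranes were not called in either genotype. Col4a1 read 7.11, 7.65, 5.85 and 5.36 FPKM in WT control, 12.9, 8.99, 9.14 and 4.78 FPKM in WT ethanol, 10.2, 4.24 and 4.48 FPKM in KO control and 4.38, 4.90, 4.07 and 9.37 FPKM in KO ethanol livers. Its partner Col4a2 read 4.19, 5.11, 4.41 and 3.77 FPKM, 7.52, 6.02, 5.83 and 3.70 FPKM, 6.06, 2.80 and 3.18 FPKM, and 3.36, 4.37, 3.93 and 5.54 FPKM in the same order of groups. Groups overlapped for both genes, whose WT changes of 0.35 and 0.31 were not called (limma adjusted p = 0.491 and 0.379). The KO changes were -0.10 and 0.12, the former above 0 under median-ratio and common-sum scaling. Col4a1 and Col4a2 are transcribed in opposite directions from a shared start region, and in the deposited positions their first 22 bases overlap at chr8:11312805-11312826 (plus strand), shown because a single window serves both genes.
Col4a1 and Col4a2: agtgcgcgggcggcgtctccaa
The ratio of Col4a1 to Col4a2 lay between 1.03 and 1.72 in all 15 libraries and did not differ detectably between diets (exact permutation p = 0.8 in WT and 0.286 in KO).

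Of the other collagens, none was called; Col18a1 was abundant, and Col14a1, a fibril-associated chain, lay lower in all ethanol livers. Col18a1 (chr10:77052178-77166530) read 155, 163, 151 and 148 FPKM in WT control, 141, 115, 96.3 and 154 FPKM in WT ethanol, 130, 153 and 155 FPKM in KO control and 143, 126, 155 and 137 FPKM in KO ethanol livers. Its limma change was -0.31 in WT (adjusted p = 0.183) and -0.06 in KO (adjusted p = 0.859), the latter above 0 under the 3 other scalings. Transcript models from its downstream start (6 of 7 models) held between 94.3% and 96.7% of its FPKM in every library, and the 1 model from the upstream start the rest. Col14a1 had log2 changes of -0.70 in WT (limma adjusted p = 0.0991) and -0.94 in KO (adjusted p = 0.0659), with no overlap between diets in either genotype. Col15a1, a basement membrane zone chain, ranged from 0.443 to 3.86 FPKM with overlapping groups.

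**Figure D3:**
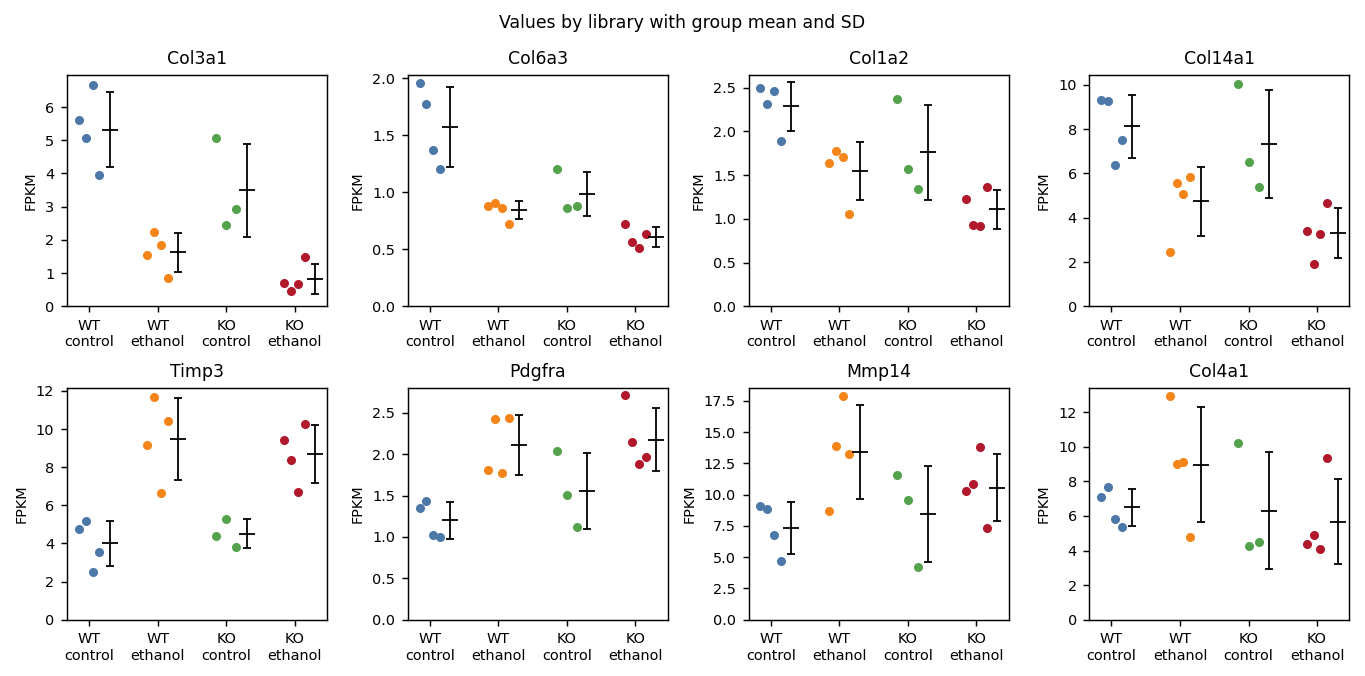
FPKM of 8 genes in each library by group, with the group mean and SD on linear axes from 0 (n = 4, and 3 for KO control). Col3a1, Col6a3 and Col14a1 show no overlap between the diets of either genotype, and Timp3 lies higher in all ethanol livers than in the control livers of the same genotype.

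Proteoglycans and glycoproteins showed no called change in either genotype. Dcn (decorin), a small leucine-rich proteoglycan that binds collagen fibrils and TGF-beta, read 45.1, 43.7, 33.9 and 42.5 FPKM in WT control, 31.5, 54.6, 35.6 and 48.0 FPKM in WT ethanol, 47.1, 43.5 and 29.7 FPKM in KO control and 37.3, 31.2, 34.0 and 32.6 FPKM in KO ethanol livers. The groups overlapped, and the limma change was 0.01 in WT (adjusted p = 0.975; below 0 under quantile and common-sum scaling) and -0.22 in KO (adjusted p = 0.556; above 0 under common-sum scaling). The related Bgn and Lum ranged from 18.2 to 38.3 FPKM and from 0.979 to 4.21 FPKM. Sparc read 11.1, 11.6, 9.96 and 14.0 FPKM in WT control, 11.2, 11.6, 9.84 and 10.3 FPKM in WT ethanol, 13.0, 10.3 and 6.94 FPKM in KO control and 6.46, 7.57, 7.16 and 12.1 FPKM in KO ethanol livers, and its groups overlapped. Thbs1, which encodes a matricellular activator of latent TGF-beta, read 0.366, 0.366, 2.47 and 0.321 FPKM in WT control, 1.07, 0.574, 0.755 and 0.288 FPKM in WT ethanol, 1.46, 0.152 and 0.15 FPKM in KO control and 0.65, 0.331, 0.13 and 0.743 FPKM in KO ethanol livers. A single high library stood out in each control group. The elastic fibre gene Fbln5 lay between 0.74 and 1.97 FPKM and the matricellular gene Postn between 0.774 and 3.28 FPKM. The untested microfibril genes Fbn1 and Fbln1 had medians of 0.675 and 0.243 FPKM.

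The level of Fn1 was not called, and the share of its longer models separated the WT diets. Fn1 (chr1:71585473-71653234) read 302, 267, 311 and 259 FPKM in WT control, 196, 327, 523 and 280 FPKM in WT ethanol, 329, 305 and 244 FPKM in KO control and 238, 350, 340 and 169 FPKM in KO ethanol livers. Groups overlapped, and the limma change was 0.13 in WT (adjusted p = 0.795; below 0 under quantile normalization) and -0.14 in KO (adjusted p = 0.817; above 0 under common-sum scaling). The isoform table lists 13 Fn1 models, of which 4 are 270 bases longer than another with the same ends. That length matches an optional exon of the gene at chr1:71603660-71603929 (GRCm38, minus strand), which 4 annotated GENCODE transcripts contain and 4 skip. This exon encodes extra domain A, present in cellular fibronectin and absent from the plasma form that hepatocytes secrete.

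The longer models took 1.65%, 2.23%, 1.69% and 2.20% of Fn1 FPKM in WT control and 3.47%, 4.15%, 4.08% and 3.20% in WT ethanol livers. In KO the shares were 2.15%, 2.45% and 3.85% on the control diet and 3.25%, 2.73%, 1.94% and 3.47% on ethanol. WT groups did not overlap, while KO groups did. The log2 difference was 0.94 in WT (two-sided exact permutation p = 0.0286, adjusted over the 12 tests 0.0857) and 0.03 in KO (exact permutation p = 0.914). The KO difference minus the WT difference was -0.92 (exact permutation of genotype labels within diets, 2450 arrangements, p = 0.0106; adjusted over 6 measures 0.0637), which did not pass. These shares, examined after other values were seen, are model-based estimates whose own error is not in the table.

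Among the enzymes and inhibitors, Timp3 rose in WT livers and the other genes were not called. Timp3 (chr10:86300412-86349505) read 4.76, 5.17, 2.52 and 3.54 FPKM in WT control and 9.16, 11.7, 6.66 and 10.4 FPKM in WT ethanol livers. For KO the values were 4.42, 5.31 and 3.82 FPKM on the control diet and 9.42, 8.39, 6.71 and 10.3 FPKM on ethanol. All ethanol livers were above all control livers of the same genotype. The limma change was 1.08 ± 0.20 (SE) in WT (adjusted p = 0.00869) and 0.81 ± 0.21 in KO (adjusted p = 0.0502), just outside the threshold. In WT it was called whichever library was left out, and with the acinar term it was 0.84 (adjusted p = 0.131). Timp3 lies within the span of another gene, Syn3, which stayed between 1.00 and 1.55 FPKM, and whether fragments were assigned by strand is not given in the sources used here.

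Timp2, which inhibits metalloproteinases and takes part in activating pro-MMP2, was not called, with log2 changes of -0.24 in WT (limma adjusted p = 0.271) and -0.41 in KO (adjusted p = 0.128). The ratio of Timp3 to Timp2, chosen after the values were seen, was 1.04 to 1.94 in WT control, 3.04 to 6.25 in WT ethanol, 1.43 to 1.88 in KO control and 3.77 to 5.86 in KO ethanol livers. Neither genotype's groups overlapped (log2 difference 1.63, exact permutation p = 0.0286 in WT; 1.54, p = 0.0571 in KO; adjusted 0.0857 and 0.098). Timp1, an inhibitor known to be raised in fibrotic liver, was hardly detected. It read 0.113, 0, 1.04 and 0 FPKM in WT control, 0.067, 0.263, 0.305 and 0.116 FPKM in WT ethanol, 0.0542, 0 and 0.133 FPKM in KO control and 0.253, 0.0989, 0.093 and 0.115 FPKM in KO ethanol livers. Its median corresponds to about 2.4 fragments per library, which limits the changes that could be detected, and it was not called in any comparison when the filter on low values was dropped.

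Mmp14, a membrane-bound collagenase that activates pro-MMP2, was not called, with log2 changes of 0.79 in WT (limma adjusted p = 0.112) and 0.35 in KO (adjusted p = 0.55). Mmp2, the gelatinase, read 0.779, 0.767, 0.536 and 0.703 FPKM in WT control, 0.482, 0.552, 0.581 and 0.345 FPKM in WT ethanol, 0.691, 0.697 and 0.562 FPKM in KO control and 0.591, 0.544, 0.256 and 0.73 FPKM in KO ethanol livers. The diets overlapped in both genotypes. Lox, a lysyl oxidase, read 0.0806, 0.067, 0.201 and 0.088 FPKM, 0.0286, 0.0337, 0.0694 and 0.144 FPKM, 0.358, 0.00954 and 0.0283 FPKM, and 0.0885, 0.0723, 0.0522 and 0.204 FPKM in the same order of groups, again with overlap. The related Loxl1 lay between 0.153 and 0.636 FPKM and Loxl2 between 1.38 and 2.42 FPKM.

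**Figure D4:**
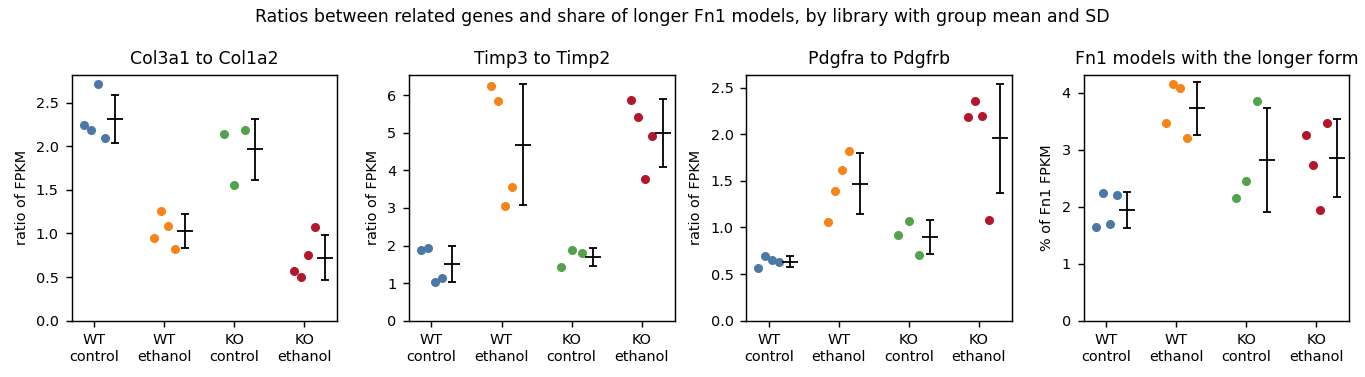
Ratios of FPKM between related genes and the percent of Fn1 FPKM in the models 270 bases longer, in each library by group with the group mean and SD, on linear axes from 0. The 3 ratios do not overlap between diets in either genotype, and the Fn1 share does not overlap in WT but does in KO.

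Of the PDGF receptors of mesenchymal cells, Pdgfra rose on ethanol in WT and Pdgfrb was not called. Pdgfra (chr5:75151400-75198211) read 1.35, 1.43, 1.02 and 1.00 FPKM in WT control and 1.81, 2.43, 1.78 and 2.44 FPKM in WT ethanol livers. In KO livers it read 2.04, 1.51 and 1.13 FPKM on the control diet and 2.72, 2.15, 1.88 and 1.97 FPKM on ethanol. The WT groups did not overlap and the KO groups did. The limma change was 0.50 ± 0.13 (SE) in WT (adjusted p = 0.0384) and 0.32 ± 0.14 in KO (adjusted p = 0.214). The WT call was lost without any 1 of the 4 WT control libraries, without WT ethanol replicate 1, 2 or 4 or KO control replicate 2, with the acinar or the Kupffer term, with no filter on low values, under common-sum scaling and when only the WT libraries were fitted.

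Pdgfrb, the receptor through which PDGF drives stellate cell division, read 2.39, 2.05, 1.57 and 1.60 FPKM in WT control, 1.72, 1.75, 1.10 and 1.34 FPKM in WT ethanol, 2.23, 1.41 and 1.60 FPKM in KO control and 1.24, 0.912, 0.857 and 1.82 FPKM in KO ethanol livers. Its groups overlapped, with changes of -0.23 in WT (limma adjusted p = 0.377) and -0.32 in KO (adjusted p = 0.283). Set against each other after the values were seen, Pdgfra to Pdgfrb had ratios of 0.563 to 0.698 in WT control, 1.05 to 1.82 in WT ethanol, 0.703 to 1.07 in KO control and 1.08 to 2.36 in KO ethanol livers. No group overlapped its counterpart on the other diet (log2 difference 1.19, exact permutation p = 0.0286 in WT; 1.08, p = 0.0571 in KO; adjusted 0.0857 and 0.098). The 3 differences in ratio moved by less than the spread between replicates when single libraries were left out, and their KO minus WT differences were between -0.31 and -0.09 (exact permutation p = 0.436 to 0.832).

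Acta2, Des and Reln, genes of contractile and quiescent stellate cells, were not called on ethanol. Acta2, the smooth muscle actin of activated stellate and vascular muscle cells, read 2.54, 2.33, 1.39 and 1.47 FPKM in WT control, 1.21, 1.37, 5.03 and 1.14 FPKM in WT ethanol, 1.26, 1.38 and 1.08 FPKM in KO control and 0.71, 1.46, 1.41 and 0.609 FPKM in KO ethanol livers. WT ethanol replicate 3 was the highest for Acta2 and, at 2.32 FPKM, for the intermediate filament gene Des. Des read 1.41, 1.54, 1.35 and 0.80 FPKM in WT control, 0.939, 1.03, 2.32 and 1.19 FPKM in WT ethanol, 1.42, 0.699 and 0.931 FPKM in KO control and 1.02, 1.09, 0.814 and 1.06 FPKM in KO ethanol livers. That library also held the highest smooth muscle marker sum, 29.9 FPKM over 10 genes, beside 18.6 to 28.1 FPKM in the others, and the part of those cells in the 2 values was not tested. Of the 5 smooth muscle markers tested for ethanol, 0 were called by limma in WT (3 at an unadjusted p under 0.05, beside 25.8% of all genes). In KO 1 of them was called higher, where 1.4% of all genes were.

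Reln, which encodes reelin and marks quiescent stellate cells, read 10.3, 10.7, 5.06 and 9.49 FPKM in WT control, 2.45, 7.86, 6.05 and 9.29 FPKM in WT ethanol, 9.74, 10.4 and 8.66 FPKM in KO control and 5.33, 3.38, 6.55 and 3.77 FPKM in KO ethanol livers. KO ethanol livers all lay below KO control livers, and the change of -0.91 was not called (limma adjusted p = 0.138; -0.48 and adjusted p = 0.35 in WT). The 20 further stellate markers, such as Lrat, Colec11, Hgf and Rgs5, summed to 54.3 to 82.8 FPKM in WT control, 44.0 to 76.6 FPKM in WT ethanol, 63.3 to 89.0 FPKM in KO control and 47.3 to 62.2 FPKM in KO ethanol livers. Of the 16 tested, none was called in WT (median log2 change -0.34, 6 at an unadjusted p under 0.05, beside 25.8% of all genes). In KO 1 fell: Colec11, a collectin, by 1.00 (limma adjusted p = 0.0487). The KO median was -0.37, with 7 of the 16 at an unadjusted p under 0.05, beside 21.7% of all genes. The markers did not all move downward, as changes lay above 0 in 5 of the 16 in WT and 3 in KO. Lrat had means of 2.72 and 4.97 FPKM on control and ethanol diet in WT, and 3.04 and 4.96 FPKM in KO. Its groups overlapped in both genotypes. The mesothelial markers Msln and Upk3b stayed under 0.4 FPKM in every library.

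Tgfb1, the main fibrogenic ligand, read 3.59, 3.97, 4.77 and 4.18 FPKM in WT control, 4.34, 3.74, 2.37 and 4.42 FPKM in WT ethanol, 7.86, 3.15 and 2.52 FPKM in KO control and 2.21, 1.75, 3.82 and 4.59 FPKM in KO ethanol livers. Diets overlapped in both genotypes, and neither change was called (limma -0.14 and -0.36, adjusted p = 0.788 and 0.524). KO control replicate 1 had the highest Tgfb1, the highest Tgfbi (28.9 FPKM) and the highest level of the intermediate filament gene Vim (17.7 FPKM). The same library had the highest Kupffer cell and macrophage sum, 331 FPKM over 12 markers, beside 29.8 to 218 FPKM in the others. It was the highest library in 8 of the 33 tested genes, and KO ethanol replicate 2 the lowest in 9.

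Other pathway genes around the matrix had been listed apart from the 39. Of 22 tested TGF-beta and PDGF signalling genes, 2 rose, 2 fell and 18 were not called in WT, and Skil rose in KO. In WT, the type II receptor gene Tgfbr2 had group means of 4.26 and 11.5 FPKM on control and ethanol diet (limma log2 change 1.24, adjusted p = 0.0239), and the SMAD repressor gene Skil 2.75 and 7.16 FPKM (1.12, adjusted p = 0.0169). The inhibitory SMAD gene Smad7 had WT means of 8.16 and 2.89 FPKM (-1.13, adjusted p = 0.0271), and Cyr61, which encodes a matricellular protein, 4.21 and 1.25 FPKM (-1.23, adjusted p = 0.00927). Without a call, the KO means were 4.30 and 10.0 FPKM for Tgfbr2, 3.74 and 4.23 FPKM for Smad7, and 2.63 and 1.42 FPKM for Cyr61. Skil in KO had means of 3.61 and 8.27 FPKM (1.08, adjusted p = 0.0377). These called genes comprise a receptor, a target with repressor function, an inhibitor and a matrix protein.

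Of 13 tested genes for other collagens and basement membrane proteins, 3 rose and 3 fell in WT (median log2 change -0.25), where 3.09% of all genes were called higher and 4.62% lower. The same shares stand beside the WT counts of the other lists, and 1.4% and 2.72% beside those in KO. Those with the lowest p were Col13a1, a transmembrane collagen, up by 0.87 (limma adjusted p = 0.00779), the heparan sulfate proteoglycan gene Agrn, with -0.62 (0.0221), the basement membrane linker gene Nid1, up by 1.09 (0.0268), and the laminin chain gene Lama5, up by 0.42 (0.0293). Lama1 and Col5a3 were the other 2 that fell. Col13a1 also rose in KO, by 0.91 (limma adjusted p = 0.0134), as 1 of 13. Among 15 tested collagen and fibronectin receptors, 3 rose in WT and 0 were called by limma in KO (4 at an unadjusted p under 0.05). Those that rose were the syndecans Sdc1 (0.87, limma adjusted p = 0.0231) and Sdc4 (0.83, adjusted p = 0.0246) and the integrin chain Itgb3 (0.93, adjusted p = 0.0286). P4hb, the protein disulfide isomerase subunit of collagen prolyl hydroxylase, rose by 0.65 (limma adjusted p = 0.0413), as 1 of 14 tested genes of collagen folding and cross-linking. Spon2, a spondin, was the 1 of 17 other glycoprotein and proteoglycan genes called, at -1.26 in WT (adjusted p = 0.036). Of 11 other protease and inhibitor genes, 0 were called by limma in either genotype, and 3 in WT and 1 in KO had an unadjusted p under 0.05, beside 25.8% and 21.7% of all genes.

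Marker sums of other cell types moved beside these comparisons. Pancreatic acinar markers, 20 genes of a tissue next to the liver, summed to 52.5 to 148 FPKM in WT control, 8.37 to 41.0 FPKM in WT ethanol, 8.84 to 28.5 FPKM in KO control and 4.29 to 10.7 FPKM in KO ethanol livers. All 17 tested fell in WT on ethanol, 0 were called by limma in KO (1 at an unadjusted p under 0.05), and 10 were lower in KO than in WT on the control diet. Of the 20, 1 was listed at 0 in all KO control livers. Kupffer cell and macrophage markers had a median log2 change of -0.63 in WT and -1.08 in KO, with 0 of 10 called by limma in each and 0 in WT and 5 in KO at an unadjusted p under 0.05. Their sum over 12 genes was 96.2 to 218 FPKM in WT control, 54.1 to 131 FPKM in WT ethanol, 67.8 to 331 FPKM in KO control and 29.8 to 120 FPKM in KO ethanol livers. Liver sinusoidal endothelial markers had medians of -0.34 and -0.42, with Lyve1 called higher in WT (1.82, adjusted p = 0.0186) as 1 of 12. Erythroid markers summed to 420 to 970 FPKM in WT control, 369 to 1128 FPKM in WT ethanol, 496 to 1106 FPKM in KO control and 160 to 936 FPKM in KO ethanol livers over 7 genes. Of their 5 tested genes, 0 were called by limma (0 in WT and 2 in KO at an unadjusted p under 0.05), with medians of -0.15 and -1.20. Platelet markers summed to 9.78 FPKM in KO control replicate 1 and to 1.01 to 3.11 FPKM in the other libraries. The sum was 2.21 to 4.94 FPKM for 14 portal fibroblast and mesothelial markers and 5.52 to 8.99 FPKM for 8 cholangiocyte markers. Hepatocyte markers summed to 23684 to 28336 FPKM in WT control, 25528 to 30863 FPKM in WT ethanol, 25389 to 30831 FPKM in KO control and 14102 to 33190 FPKM in KO ethanol livers, the lowest being the library with Alb listed at 0. Of the 11 hepatocyte markers tested, 1 was called higher on ethanol in WT and 1 in KO, where 3.09% and 1.4% of all genes were. The part of these other cells in the results was not tested. Terms for the acinar and Kupffer sums were fitted, but the acinar sums did not overlap between the WT diets. A WT call lost with the acinar term therefore does not tell acinar content apart from diet.

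Loss of Fkbp5 was not accompanied by a called change in any of the tested genes on either diet. Where 0.181% of all genes were called in KO against WT on the control diet and 0.101% on the ethanol diet, 0 of 33 were called by limma in each. At an unadjusted p under 0.05 there were 2 on the control diet, Col6a3 (-0.37, limma adjusted p = 0.559) and Col3a1 (-0.52, adjusted p = 1), and 1 on ethanol, Col3a1 (-0.52, adjusted p = 0.974), beside 4.23% and 5% of all genes at that p. With library weights, 5 genes were called lower in KO on the control diet: Col1a1, Col1a2, Col3a1, Col5a1 and Col6a3. The share of all genes called with these weights is not given here. This count therefore has no background beside it and is not read as a result about these genes. Groups did not overlap for Acta2 on the control diet, where WT read 1.39 to 2.54 FPKM and KO 1.08 to 1.38 FPKM, nor for Col6a3 on ethanol, with 0.724 to 0.904 FPKM in WT and 0.51 to 0.717 FPKM in KO. Such separation downward held for 2.27% of all genes on the control diet and 1.58% on ethanol. Upward it held for 0 of the 33 on either diet, beside 4.54% and 0.86% of all genes. Median changes of the 33 were -0.08 and -0.18, beside 0.03 and -0.02 over all genes. Changes lay above 0 in 11 of the 33 on the control diet and 5 on ethanol, beside 58.8% and 46.1% of all genes. On simulated data, the fit recovered 64% and 72% of changes of 1 on the log2(FPKM + 1) scale for these 2 comparisons.

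Whether the ethanol response differed between genotypes was tested by the interaction, in which 0 of 33 genes were called by limma, as were 0 of all genes (0%), and 0 of the 33 had an unadjusted p under 0.05. For Col3a1 the interaction was -0.0028 with a 95% interval of -0.71 to 0.71, and for Col6a3 0.17 with -0.17 to 0.51. The median over the 33 genes was -0.14 beside -0.05 over all genes, and 0.22 beside 0.31 under common-sum scaling. Fits to simulated data for this interaction recovered 46% of changes of 1 on the log2 scale and 90% of changes of 2.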

How the data were processed

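RNA was isolated from snap-frozen livers and sequenced on an Illumina instrument, per the labels' protocols. TopHat, Cufflinks and Cuffdiff are named without versions, and mm9 as the build, per the submitters' processing notes. The authors deposited FPKM per gene and per isoform, without counts. Both ends of 29 of the 39 genes lay within 10 bases of RefSeq GRCm38.p6 (all 39 within 100 bases), so positions are given as GRCm38. Depth was estimated from the values that single fragments give in genes of 1 isoform.

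Groups follow the sample titles. The 13840 genes that reached 1 FPKM in 3 or more libraries entered limma 3.58.1 under R 4.3.3 (lmFit and trended eBayes) as log2(FPKM + 1), with 4 group means over all 15 libraries, and adjusted by Benjamini-Hochberg within each of 5 contrasts. Ratios were compared with exact permutation tests (scipy 1.17.1, Python 3.11.15). The genes, lists and named members were chosen with earlier results of these data known. Values in every library are given for called genes and for 21 genes fixed by role. From each pathway list called genes are named, at most 4 per comparison, lowest p first, and 2 more are named in 1 list. Called acinar, smooth muscle and hepatocyte markers are counted but not named. On simulated data, the fit recovered 77% of changes of 1 on the log2(FPKM + 1) scale for ethanol in WT and 77% in KO, in genes drawn from all those tested. Alternatives were other pseudocounts, filters, scalings, spread models, library weights, a replicate block, a regrouping of WT ethanol replicate 4, an Xist term and leaving out each library. Terms for acinar and for Kupffer markers, and leaving out KO control replicate 1 together with WT ethanol replicate 4, were chosen after seeing the data. Upstream sequences are from RefSeq, and the optional Fn1 exon from GENCODE.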

Additional observations from a re-analysis of the deposited data

Results flagged for a closer look

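In 9 of 117 groups of 4 livers, over 39 genes, 1 library lay far outside the other 3 by Dixon's test (7.69%; about 1 in 20 arises by chance). WT control replicate 3 was high for 3 genes: Thbs1 at 2.47 FPKM, Timp1 at 1.04 FPKM and Lox at 0.201 FPKM. KO ethanol replicate 4 was high for Col4a1, at 9.37 FPKM, and for Fbn1, at 1.02 FPKM. Acta2 was high in WT ethanol replicate 3, at 5.03 FPKM, beside 1.37 FPKM in the next library. Col15a1 was high in WT ethanol replicate 2, at 3.86 FPKM. Col6a2 was high in WT control replicate 1, at 1.58 FPKM, and Timp1 in KO ethanol replicate 1, at 0.253 FPKM. KO control has 3 libraries and was not examined in this way.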

How the results depend on the processing

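Of the 33 tested genes, 4 were called for ethanol in WT. With a minimum of 5 FPKM this number was 2, but only 14 genes were tested, and Col6a3 and Pdgfra were not among them. It was also 2 when only the WT libraries were fitted, 8 with library weights and 1 with the acinar term (Reln, lower). Leaving out single libraries gave 2 to 5 (2 without WT control replicate 1, WT control replicate 2 or WT ethanol replicate 1). With an Xist term it was 6, the added genes being Mmp14, higher, and Col5a1, lower. Untrended eBayes, robust eBayes and 1 entry per symbol each gave 5, adding Col5a1. It was 3 with no filter, the Kupffer term, quantile or common-sum scaling. For ethanol in KO, 1 was called. This was 2, the added gene being Timp3, with a minimum of 5 FPKM (14 genes tested) or with median-ratio, quantile or common-sum scaling. The same held with robust eBayes, the replicate block, WT ethanol replicate 4 regrouped as KO, or an Xist term. The KO number was 13 with library weights, 4 with the acinar term (Col3a1, Col14a1, Timp2 and Reln, all lower), and 0 with the Kupffer term and when only the KO libraries were fitted. It was 1 to 2 when single libraries were left out (2 without WT control replicate 3, WT ethanol replicate 1, WT ethanol replicate 3 or KO ethanol replicate 3). For KO against WT on the control diet, 0 became 5 with library weights (Col1a1, Col1a2, Col3a1, Col5a1 and Col6a3, all lower), and was 0 whichever library was left out. No other alternative moved the calls between genotypes or the interaction from 0, and no called gene changed sign. The cause of these shifts was not tested. The shares of all genes called under these alternatives, library weights among them, are not given here. The counts show how the calls depend on the setting and are not read as results about the 33 genes.

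Correlations of deviations showed no clear pairing by replicate number. Of 21 same-numbered pairs, 7 had a correlation over 0.1 (range -0.33 to 0.44), and 2 of 15 libraries correlated best with their own number. These values cannot exclude a pairing, since Xist levels also differed within same-numbered pairs, such as WT control 1 (80.2 FPKM) and WT ethanol 1 (0.621 FPKM). With the replicate block, 4 genes were called in WT and 2 in KO. Common-sum scaling shifted the median of all genes by 0.26 in KO, by -0.26 for genotype on the control diet and by 0.35 for the interaction. Each of these comparisons includes KO control replicate 1, the library with the largest FPKM sum (790741). Genes under 1 FPKM rest on few fragments, with medians of about 2.4 for Timp1 and 9.6 for Lox, which limits the changes that could be detected. With no filter on low values, 0 of the 6 untested genes were called.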
